A study of Mus musculus with 58 samples.

Results

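The 9 genes followed here set or read out myeloid fate and were chosen by name, 6 transcription factor genes, Spi1, Cebpa, Cebpb, Cebpd, Irf8 and Gfi1 and 3 cytokine receptor genes, Csf1r, Csf3r and Csf2ra. They are 9 of the 55376 genes in the RNA count files, and each of the 9 passed the filter on low counts in every RNA comparison. Their mRNA was described in hematopoietic stem cells (HSCs) of 6 diet groups and in HSCs carrying short hairpin RNAs (shRNAs), and PU.1 binding, open chromatin and 2 histone marks were described at their loci, which were taken as 50 kb on either side of the transcription start site (TSS) plus the gene body.

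PU.1, the product of Spi1, is an ETS-family transcription factor that HSCs need and that, at higher dose, drives cells toward macrophages and granulocytes. It works with C/EBP factors, with IRF8 toward monocytes and against GFI1, a repressor that favours neutrophils and restrains stem cell cycling. The receptors read the growth factors of the mature lineages: CSF1R binds M-CSF, CSF3R binds G-CSF, and CSF2RA is the ligand-binding chain for GM-CSF. PU.1 is known to bind regulatory regions of its own gene and of the receptor genes.

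The diet libraries came from wild-type C57BL/6 males: OAL (old, 24 to 26 months, fed ad libitum, 4 RNA libraries), OCR (old, 40% caloric restriction, CR, begun at 3 to 4 months, 4 libraries), OCRRF (old, refed ad libitum for 4 weeks after lifelong CR, 2 libraries), YAL (young, 3 to 4 months, fed ad libitum), YCR (young, 4 weeks of CR, at 20% in the first week and 40% after that) and YCRRF (young, refed for 4 weeks after that CR), with 4 libraries in each young group. In the knockdown libraries, HSCs of aged CD45.2 mice were infected with lentiviral shRNA in culture, transplanted into irradiated female CD45.1 recipients of the B6.SJL strain and sorted again by another gate (CD48- and CD150+ in place of CD34-, Flk2- and CD150+). Kdr knockdown (4 libraries, GFP virus, 1 Kdr shRNA) was compared with GFP scramble (2 libraries), and double knockdown of Kdr and Bmpr1a (4 libraries, the Kdr shRNA with either of 2 Bmpr1a shRNAs, 2 libraries each) with double scramble (2 libraries). The control groups of 2 and the culture and transplant that all of these cells went through limit this model. PU.1 ChIP-seq had 2 libraries each of OAL, OCR and OCRRF, ATAC-seq 4 OCR and 2 OCRRF libraries, and the histone marks 2 OCR libraries each. For ATAC-seq and histone marks, OAL was not analysed here.

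Depth was 11102898 to 36579392 counts per diet library and 35657999 to 44780217 per knockdown library. The old diet libraries had a count in 42071 to 46646 genes and the young ones in 22209 to 33496, so age and library background cannot be told apart. None of the 45 pairs of libraries within a group held identical counts, and each pair differed by more than sampling noise (chi-square per gene 8.17 to 335.9). The highest values, 335.9, 238.4 and 153, were those of YCRRF replicate 3 with the other YCRRF libraries. Every pair without that library was at 56.5 or less. The labels do not say that libraries of a group came from separate animals, so p-values measure the spread between these libraries. All 9 listed stem cell genes had counts in each diet group, but so had all listed B lymphoid, T lymphoid and erythroid markers, so this does not identify the cells. The 7 listed neutrophil markers, which the sort should remove, summed to 5.4 to 84.3 CPM (read counts scaled to library size) in OAL, 4.4 to 100.9 in OCR, 85 to 85.1 in OCRRF, 4.98 to 667.1 in YAL, 2.15 to 274.5 in YCR and 259.6 to 1319 in YCRRF. In bulk RNA, fewer cells that express a gene and less RNA per cell cannot be told apart.

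Levels between genes were compared per kilobase of exon. In YAL, Cebpb (31.1 ± 4.76 CPM per kb, SD, n = 4), Csf3r (30.9 ± 6.44), Spi1 (30.6 ± 3.25) and Csf2ra (28.3 ± 2.33) differed from each other by less than the largest SD among them. Gfi1 followed at 12.5 ± 5.37, then Cebpd at 3.37 ± 0.655, Csf1r at 3.23 ± 1.02 and Irf8 at 2.14 ± 0.407 CPM per kb. In OAL, Csf3r led at 43.9 ± 5.69 CPM per kb, ahead of Cebpb at 33.9 ± 1.01, while Csf2ra (21.1 ± 1.48) and Spi1 (19.8 ± 1.01) differed from each other by less than their spread. Cebpa, the C/EBP factor that granulocyte-monocyte progenitors need, was near the limit of detection throughout. Its level was 0.35 ± 0.254 CPM per kb in YAL and 0.293 ± 0.104 in OAL, it had no count in YCR replicate 2 and YCRRF replicate 3, and its highest value in any RNA library was 2.04 CPM.

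In old mice, lifelong CR went with lower Cebpb and lower Gfi1, and with no detectable change in Spi1. Cebpb encodes a C/EBP factor known for emergency granulopoiesis. Its 4 OAL libraries held 50.7, 50.4, 53.1 and 49.6 CPM and its 4 OCR libraries 23.5, 26.2, 22.1 and 31. Every OCR library was below every OAL library, and the call held whichever of the 8 libraries was left out. The fitted difference was -0.97 ± 0.10 on the log2 scale (SE; edgeR quasi-likelihood test, Benjamini-Hochberg adjusted p = 1.92e-07), 1.96-fold lower in OCR. Gfi1 held 17.1, 21.2, 31 and 28.3 CPM in OAL and 13.4, 8.07, 8.07 and 21.8 in OCR. OCR replicate 4 lay inside the OAL range, so the groups overlapped, and the fitted fall was 0.90 ± 0.22 on the log2 scale (edgeR adjusted p = 0.00983). The Gfi1 call was lost in DESeq2 (adjusted p = 0.139) and without OCR replicate 2 (-0.74), OCR replicate 3 (-0.74), OAL replicate 3 (-0.78) or OAL replicate 4 (-0.81).

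**Figure D1:**
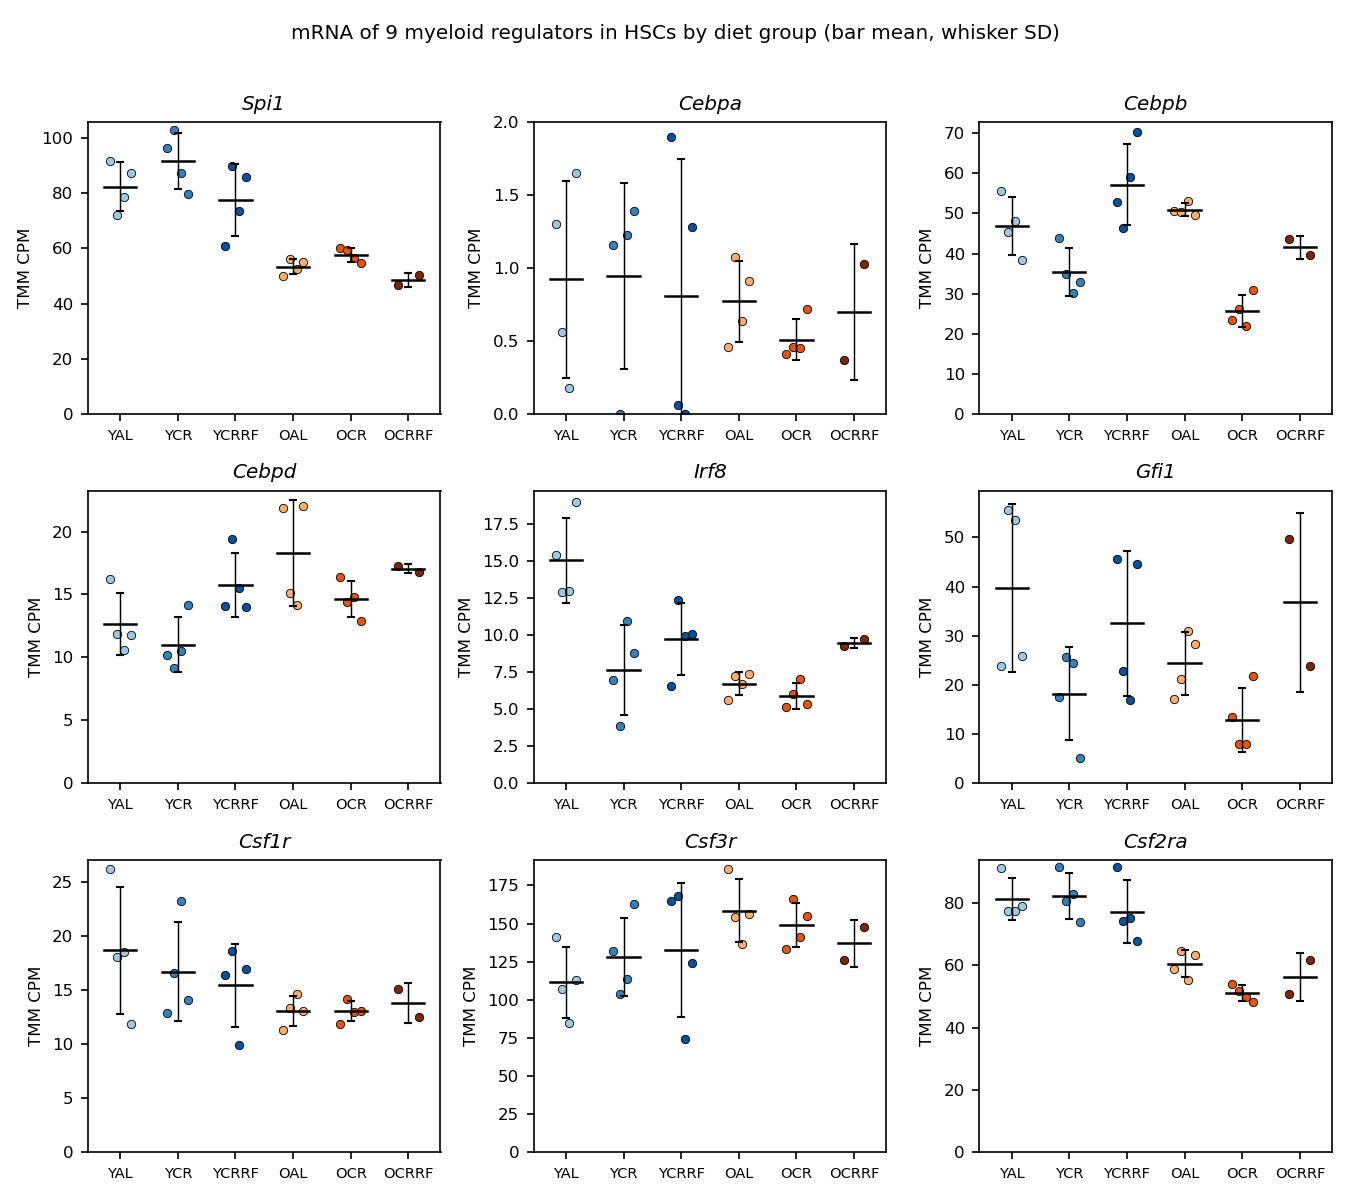
TMM-normalised CPM (y axis, from 0, a scale of its own for each gene) of the 9 genes in each HSC library of the 6 diet groups (x axis); points are libraries, bars are means and whiskers are SD (n = 4, and n = 2 for OCRRF). Cebpb lies at 22.1 to 31 CPM in OCR, below the 49.6 to 53.1 CPM of OAL, while Spi1 lies at 54.7 to 60.2 CPM in OCR and 50 to 56.1 in OAL.

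These 2 were the members called among 9 in OCR against OAL, both lower. A gene was called at an adjusted p below 0.05 with a fold above 1.2, which held for 5.57% of the 27150 genes tested, and for 3.03% in the lower direction. The median log2 fold change of the 9 members was -0.23, beside 0.02 over all genes tested. Spi1 was at 50, 56.1, 52.7 and 55 CPM in OAL and at 60.2, 59.4, 56.5 and 54.7 in OCR, which overlap, with a log2 difference of 0.13 ± 0.08 (edgeR adjusted p = 0.517). Csf2ra did not overlap between groups, at 55.3 to 64.5 CPM in OAL and 48.1 to 54.1 in OCR, but its difference of -0.23 ± 0.09 missed the threshold (edgeR adjusted p = 0.137). Lack of overlap between groups, which Cebpb and Csf2ra showed, was found for 11.4% of genes in this comparison. Cebpd, an inflammation-responsive C/EBP factor, was spread widely in OAL (14.2 to 22 CPM) and stood at 12.9 to 16.4 in OCR (-0.30 ± 0.14, edgeR adjusted p = 0.275). Irf8 (-0.18 ± 0.16), Csf1r (0.02 ± 0.13), Csf3r (-0.07 ± 0.09) and Cebpa (-0.57 ± 0.43) had adjusted p-values of 0.586 to 0.972 in edgeR.

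Related factors went in both directions or were not called in OCR against OAL. Of 17 tested PU.1 relatives and partners, 2 fell and none rose, Jun (-1.13 ± 0.10, edgeR adjusted p = 7.75e-09) and Junb (-0.60 ± 0.11, 0.000862), the AP-1 subunits, of which c-Jun is a known PU.1 coactivator. Of 18 other myeloid and antagonist factors, Gata1, the erythroid factor that opposes PU.1, rose (1.46 ± 0.24, edgeR adjusted p = 0.000112), while Id2 (-1.05 ± 0.11) and Maf (-0.52 ± 0.12) fell. Of 22 granule and phagocyte genes that PU.1 and C/EBP factors are known to activate, 3 rose, the integrin gene Itgam (0.99 ± 0.25), the oxidase subunit gene Ncf4 (0.95 ± 0.24) and the lysosomal gene Cd68 (0.82 ± 0.17), and 1 fell, the granule protease gene Prtn3 (-0.41 ± 0.09). Their median of 0.21 stood beside 0.02 for all genes. In the same contrast 3 of 8 erythroid markers, all hemoglobin genes, fell by 2.13 to 2.22 on the log2 scale, and 1, Epor, rose (0.91 ± 0.15). The 8 erythroid markers summed to 52.5 to 82.8 CPM in OCR and 46.6 to 236 in OAL. Of 9 stem cell identity genes, 4 fell and 1 rose. The part of these differences in the changes above was not tested.

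Refeeding for 4 weeks went with higher Cebpb and Gfi1 than in OCR. Cebpb was at 43.6 and 39.6 CPM in the 2 OCRRF libraries, above all 4 OCR libraries (0.64 ± 0.14, edgeR adjusted p = 0.00584). Gfi1 was at 49.7 and 23.9 CPM, both above all 4 OCR libraries but far from each other (1.47 ± 0.24, edgeR adjusted p = 9.86e-05). Both calls were lost without OCRRF replicate 1, with Cebpb then at 0.52 (edgeR adjusted p = 0.278) and Gfi1 at 0.80 (0.0994), and DESeq2 gave an adjusted p of 0.102 for Gfi1 and called Spi1 in its place (0.0286). The OCR libraries serve both this comparison and the one with OAL, so the opposite signs of the 2 are not independent of each other.

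These were again 2 calls among 9 members, both higher, beside 3.41% of 32577 genes called in either direction and 0.694% called higher. The median of the 9 members was 0.16 on the log2 scale and that of all genes 0.11. Spi1 was lower at 46.8 and 50.5 CPM, below all 4 OCR libraries, with a difference of -0.30 ± 0.13 that missed the threshold (edgeR adjusted p = 0.199). Irf8, the partner of PU.1 in monocyte development, stood at 9.26 and 9.75 CPM above the 5.19 to 7.07 of OCR (0.63 ± 0.21, edgeR adjusted p = 0.0853). Cebpd, at 17.3 and 16.8 CPM, was also above OCR in both libraries (0.16 ± 0.16). With only 2 OCRRF libraries, 28.3% of all genes did not overlap between these groups, beside 5 of the 9 members (Spi1, Cebpb, Cebpd, Irf8 and Gfi1). The 3 receptor genes had log2 differences of -0.18 to 0.08.

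Among the related genes, Jun (1.24 ± 0.16, edgeR adjusted p = 8.66e-07) and Junb (0.52 ± 0.14) rose in OCRRF against OCR, and 3 others of the 18 PU.1 relatives and partners fell, among them Myb (-0.50 ± 0.13) and Cbfb (-0.46 ± 0.12). Gata1 (-1.53 ± 0.26, edgeR adjusted p = 0.00013), Gfi1b (-0.75 ± 0.17) and Zfpm1 (-0.56 ± 0.12), 3 genes of the erythroid and megakaryocytic program, fell, and Id2 rose (0.52 ± 0.14). Of 15 receptors and ligands, 2 rose, Csf2rb (1.09 ± 0.21, edgeR adjusted p = 0.00103) and Csf2rb2 (0.73 ± 0.18), which encode beta chains of the CSF2RA receptor family, and Kit, the stem cell factor receptor gene, fell (-0.49 ± 0.12). Of 22 granule and phagocyte genes 1 was called, Cd68, lower (-0.78 ± 0.19). In this contrast 3 hemoglobin genes were higher by 1.56 to 1.66 on the log2 scale, while Epor, another erythroid marker, was lower (-0.82 ± 0.18). The B cell gene Pax5 was higher as well (1.28 ± 0.36), and the part of these genes in the changes above was not tested.

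Against OAL, the refed libraries had no member called in edgeR, beside 4.14% of 31816 genes called. DESeq2 called 2 members, beside 4499 of 55376 genes. In edgeR 4 members had an unadjusted p below 0.05. The share of all genes at that p was not taken in any RNA comparison, so such counts stand without it. Cebpb was below OAL in both libraries (-0.30 ± 0.09, edgeR adjusted p = 0.0524). Irf8 was above the OAL range of 5.63 to 7.39 CPM (0.48 ± 0.17, edgeR adjusted p = 0.0921). Gfi1 was at 0.59 ± 0.22, a value that turned to -0.05 without OCRRF replicate 1. Cebpb and Irf8 were the 2 members without overlap, where 38.7% of all genes had none. Mpo, the neutrophil peroxidase gene, was the single call among 22 granule and phagocyte genes (2.52 ± 0.32, edgeR adjusted p = 0.00213), and the neutrophil marker sum was 85 to 85.1 CPM in OCRRF beside 5.4 to 84.3 in OAL. Its part in these differences was not tested.

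**Figure D2:**
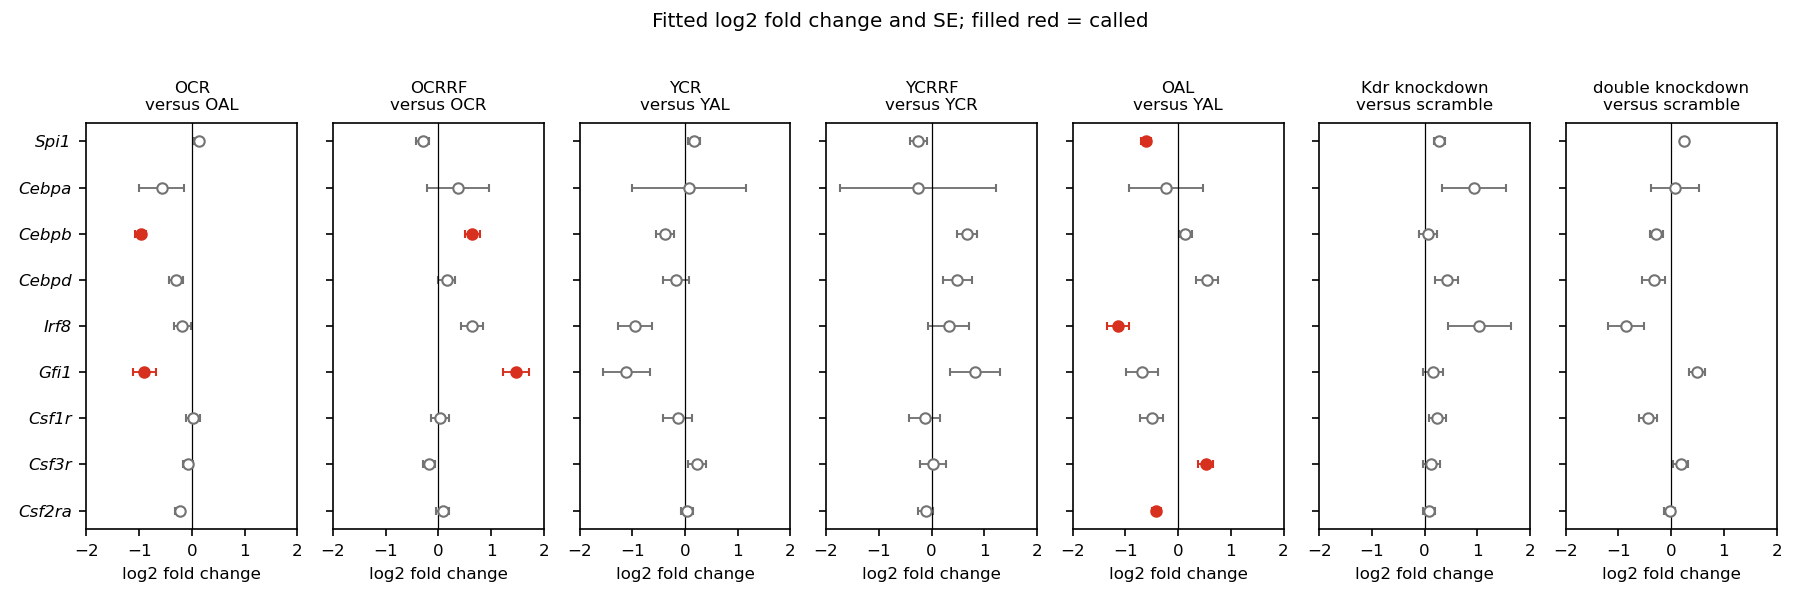
Fitted log2 fold change (x axis) of each gene (y axis) in 7 RNA comparisons, 1 panel each, with whiskers of 1 SE; filled red points are called at an adjusted p below 0.05 and a fold above 1.2. Cebpb and Gfi1 are called below 0 in OCR against OAL (-0.97 and -0.90) and above 0 in OCRRF against OCR (0.64 and 1.47), and no gene is called in the young diet or knockdown comparisons.

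In young mice, no member was called after 4 weeks of CR. In YCR against YAL, edgeR called 0.257% of 18680 genes, and 3 members had an unadjusted p below 0.05. Of 55376 genes, DESeq2 called 517, with 0 members among them. Cebpb was at 55.6, 45.3, 48.2 and 38.3 CPM in YAL and at 44, 34.8, 30.2 and 32.9 in YCR, with 1 YCR library inside the YAL range (-0.38 ± 0.17, edgeR adjusted p = 0.524). Gfi1 was at 23.9, 55.5, 53.5 and 25.9 CPM in YAL and 17.5, 25.7, 24.5 and 5.14 in YCR (-1.11 ± 0.44, edgeR adjusted p = 0.455). Its YAL libraries lay in 2 pairs. Irf8 was at 15.4, 12.9, 13 and 19 CPM in YAL and at 6.99, 3.85, 11 and 8.79 in YCR, without overlap (-0.95 ± 0.32, edgeR adjusted p = 0.357). It was the 1 member without overlap, beside 6.33% of all genes. Spi1 overlapped, at 72 to 91.6 CPM in YAL and 79.8 to 102.9 in YCR (0.17 ± 0.12). The single call among the related lists was Gfi1b, the paralog of Gfi1 in erythroid cells (0.79 ± 0.14, edgeR adjusted p = 0.048).

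The young CR response was not shown to differ from the old one for any member. In the fit of all 4 groups, the difference of the responses was -0.58 ± 0.20 for Cebpb (old minus young; edgeR adjusted p = 0.382) and 0.79 ± 0.37 for Irf8 (adjusted p = 0.551). No member was called in edgeR, beside 0.0424% of 28328 genes, and 2 had an unadjusted p below 0.05. With DESeq2, 0 members were called, beside 239 of 55376 genes. For Spi1 the difference was -0.04 ± 0.14.

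Young refeeding gave Cebpb values of 52.9, 46.4, 59 and 70.3 CPM in YCRRF, all above YCR (0.67 ± 0.19, edgeR adjusted p = 0.36). Cebpb was the 1 member with an unadjusted p below 0.05 in edgeR, which called 0 of 9, beside 0.0102% of 19535 genes. Among the members, DESeq2 called Cebpb alone (adjusted p = 0.047), beside 357 of 55376 genes. It was also the 1 member without overlap, beside 5.53% of all genes. Gfi1 (0.82 ± 0.47) and Cebpd (0.49 ± 0.27) overlapped. The neutrophil marker sum reached 259.6 to 1319 CPM in YCRRF, beside 2.15 to 274.5 in YCR, and its part in the Cebpb values was not tested. In YCRRF against YAL, 0 members were called or at an unadjusted p below 0.05 in edgeR, which called 0% of 19334 genes. With DESeq2, 0 members were called, beside 50 of 55376 genes. Irf8, at 6.56 to 12.4 CPM, was the 1 member without overlap with YAL, beside 3.22% of all genes.

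Between OAL and YAL, 4 members were called. Spi1 was at 91.6, 72, 78.7 and 87.3 CPM in YAL, above all 4 OAL libraries, and was 1.53-fold lower in OAL (-0.61 ± 0.10, edgeR adjusted p = 0.00374). Irf8 (-1.14 ± 0.20, edgeR adjusted p = 0.00501) and Csf2ra (-0.41 ± 0.09, 0.0138) were lower as well, and Csf3r was higher (0.52 ± 0.14, 0.0326). Spi1, Irf8 and Csf2ra did not overlap between groups, as was the case for 27.6% of all genes, and 14.8% of 23525 genes were called. Library background differed with age as given above, and its part in these values was not tested. Spi1 and Irf8 were called whichever library was left out, while Csf2ra lost its call without OAL replicate 1 (-0.39, edgeR adjusted p = 0.0545), and Csf3r lost its call without any 1 of 6 libraries (YAL replicate 2, 3 or 4, or OAL replicate 1, 2 or 4), with values of 0.40 to 0.53. Gfi1 (-0.69 ± 0.30), Csf1r (-0.50 ± 0.22) and Cebpd (0.55 ± 0.21) missed the threshold, and Cebpb stood at 0.14 ± 0.12. Of the 22 granule and phagocyte genes, 10 were lower in OAL and 1 higher, with Mpo (-6.20 ± 1.46), Ctsg (-4.68 ± 1.41) and Cd52 (-2.37 ± 0.41) among the lower ones, and the median was -0.94 beside 0.05 for all genes. The neutrophil marker sum in YAL ran from 4.98 to 667.1 CPM. Of 7 B lymphoid markers 4 were lower in OAL, with sums of 42.2 to 48.2 CPM beside 82.7 to 160.4 in YAL, and of 5 markers of progenitors outside the gate 3 were lower, with sums of 130.7 to 161.9 beside 174.4 to 227.3. Their part in the values of the 4 called members was not tested.

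Across the 22 diet libraries, the genes whose log CPM was most like that of Spi1 among 12327 were Exosc5 (r = 0.95), C1qtnf12 (0.95), Kcnn4 (0.93), Plekhj1 (0.93) and Nefh (0.93). These libraries share their age groups and library background, and within the 10 old libraries the same 5 genes had r of 0.44 to 0.90, and within the 12 young ones 0.62 to 0.80. Of the members, Csf2ra was most like Spi1 over all libraries (r = 0.78), with r of -0.08 within the old and -0.00 within the young libraries.

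In transplanted HSCs, Kdr was lower in each knockdown library than in its controls. It was at 1.93, 2.21, 3.28 and 2.03 CPM in Kdr knockdown and at 6.04 and 6.07 in GFP scramble (-1.35 ± 0.25, edgeR adjusted p = 0.247). In double knockdown, Kdr was at 1.24, 0.555, 1.6 and 1.35 CPM beside 3.97 and 4.62 (-1.86 ± 0.37, edgeR adjusted p = 0.272). Bmpr1a was at 4.44 and 0.656 CPM with the first Bmpr1a shRNA and at 2.22 and 0.595 with the second, beside 5.21 and 4.43, so 1 double knockdown library lay inside the control range (-1.29 ± 0.72, adjusted p = 0.602). Neither target passed the threshold, so the counts of 0 called members come from comparisons in which the targeted genes were not called either.

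Spi1 was higher in both knockdowns without reaching the threshold. It was at 74.2, 93, 89.6 and 93.7 CPM in Kdr knockdown and at 73.8 and 70.4 in GFP scramble (0.28 ± 0.11, edgeR adjusted p = 0.502). In double knockdown it was at 81.5, 88.2, 84.3 and 89.7 CPM beside 74.3 and 70 (0.25 ± 0.07, edgeR adjusted p = 0.321). In each, every knockdown library was above both controls. As a sum, the 5 markers of progenitors outside the gate of the diet groups were also above both controls in every knockdown library. Their sums were 498.8 to 598.4 CPM in Kdr knockdown beside 401.9 to 478.8, and 607 to 937.2 in double knockdown beside 502.2 to 546.7. Among them, Cd34 and Flt3 encode CD34 and Flk2, which the gate after transplantation did not select against. In Kdr knockdown the 9 stem cell identity genes summed to 2107 to 2303 CPM beside 2641 to 2678, and the 7 B lymphoid markers to 44.3 to 71.9 beside 34.1 to 41.4. The part of these differences in the Spi1 values was not tested. The double knockdown differed from the single one by -0.03 ± 0.13 in its Spi1 response (edgeR adjusted p = 1).

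**Figure D3:**
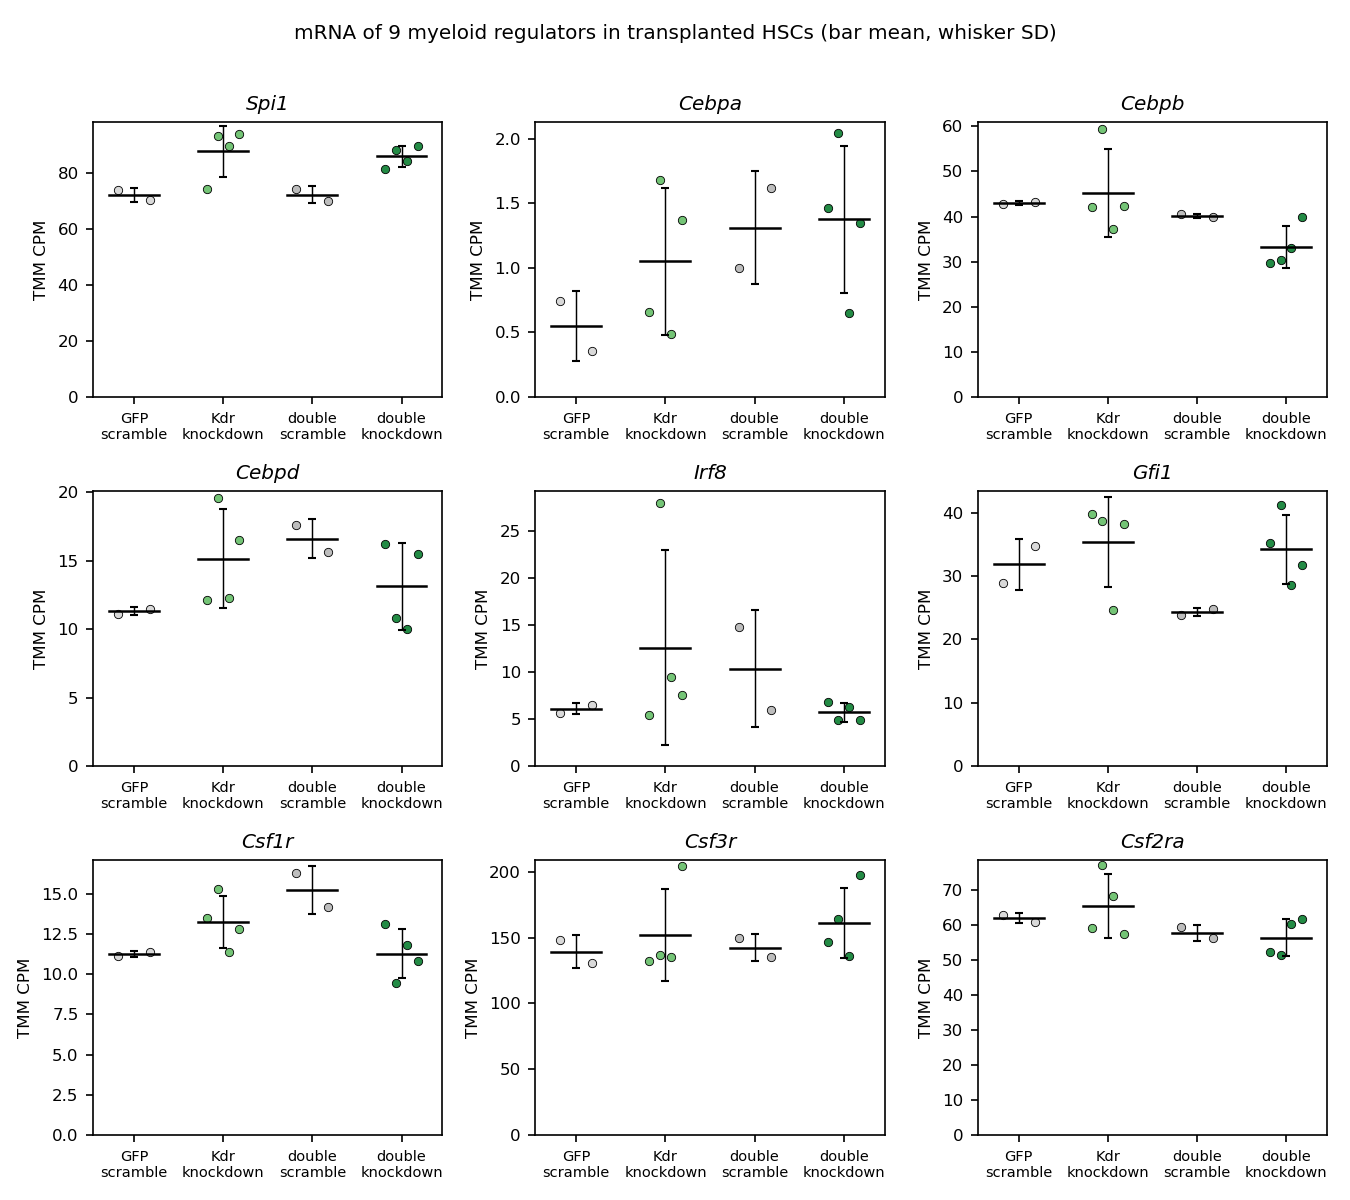
TMM-normalised CPM (y axis, from 0, a scale of its own for each gene) of the 9 genes in each transplanted HSC library of the 4 knockdown and scramble groups (x axis); points are libraries, bars are means and whiskers are SD (n = 4 per knockdown, n = 2 per scramble). Spi1 lies at 74.2 to 93.7 CPM in Kdr knockdown and 81.5 to 89.7 in double knockdown, each above its own scramble libraries at 70.4 to 73.8 and 70 to 74.3 CPM.

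All 9 members had a log2 fold change above 0 in Kdr knockdown (median 0.24, beside -0.00 for all genes). In edgeR 0 were called, beside 0.0149% of 20098 genes, and Spi1 was the 1 at an unadjusted p below 0.05. Of 55376 genes, DESeq2 called 261, with 0 members among them, and it gave no adjusted p for Cebpa. Irf8 was at 5.43, 28, 9.47 and 7.57 CPM beside 5.69 and 6.54, for a value of 1.04 ± 0.60 that was 0.29 without replicate 2. That library also had the highest sum of the 9 monocyte and macrophage markers in its group, 68.3 CPM beside 29.8 to 42.9 in the others, and its part in the Irf8 value was not tested. Cebpd was at 12.1, 19.6, 12.3 and 16.5 CPM beside 11.1 and 11.5 (0.42 ± 0.22). Spi1 and Cebpd were the 2 members without overlap, beside 21.9% of all genes.

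In double knockdown 4 members had a log2 fold change above 0 and 5 below 0. In edgeR 0 were called, beside 0.00498% of 20072 genes, and 4 were at an unadjusted p below 0.05. Of 55376 genes, DESeq2 called 333, with 0 members among them. Gfi1 was at 35.3, 41.3, 28.6 and 31.7 CPM beside 23.9 and 24.8 (0.49 ± 0.15, edgeR adjusted p = 0.371). Csf1r was at 13.1, 9.44, 11.8 and 10.8 CPM beside 16.3 and 14.2 (-0.44 ± 0.17, adjusted p = 0.454 in edgeR). Cebpb, at 29.6, 30.4, 33 and 39.8 CPM, lay just below the 40.5 and 39.9 of its controls (-0.28 ± 0.13). Irf8 was at 4.85 to 6.82 CPM beside 14.8 and 5.95, so its value of -0.86 ± 0.34 rested on scramble replicate 1, without which it was -0.07. These controls were also high in monocyte and macrophage markers, at 68.4 and 76.3 CPM beside 22.9 to 47.6 in the knockdown, and scramble replicate 1 had a neutrophil marker sum of 4129 CPM beside 806.6 in the other. The part of these cells in the Irf8 and Csf1r values was not tested. Spi1, Gfi1, Cebpb and Csf1r did not overlap, beside 21.3% of all genes.

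The double and single knockdown responses were set against each other in 1 fit of the 4 groups. No member was called in edgeR, beside 0% of 21250 genes, and 3 were at an unadjusted p below 0.05. With DESeq2, 0 members were called, beside 3 of 55376 genes. The differences, double minus single, were -1.91 ± 0.77 for Irf8, -0.68 ± 0.23 for Csf1r and -0.75 ± 0.33 for Cebpd, each at an edgeR adjusted p of 1. The Irf8 value was -1.11 without double scramble replicate 1 and -1.16 without Kdr knockdown replicate 2. In edgeR, none of the 4 lists of related genes had a called member in either knockdown.

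PU.1 protein binding was read from the peak lists of the 6 PU.1 ChIP-seq libraries, each peak with its fold enrichment over the local background of its own library. The library titles name no antibody. The names of the deposited peak lists give 1 antibody supplier for replicate 1 of each group and another for replicate 2. Peaks were merged into 6820 regions, of which 13 lay at 7 of the 9 loci and none at Irf8 or Csf3r. In both OCR libraries 8 of the 13 had a peak (46.5% of all regions), in both OAL libraries 5 (31.4%) and in both OCRRF libraries 2 (25.2%). The OCR libraries also had the most peaks in all, 5464 and 3852, beside 3046 and 2900 in OAL and 2817 and 2262 in OCRRF, and the part of library yield in these counts was not tested.

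Among the 13 regions at the loci, the one with the highest fold enrichment in each of the 6 libraries lay 26 kb before the Spi1 TSS. It lay between genes, and the nearest gene was Slc39a13 rather than Spi1. The fold enrichments of this region were 23.2 and 23.4 in OAL, 24 and 22.7 in OCR and 19.8 and 18.8 in OCRRF. A region in an intron of Spi1, 13.6 kb before the TSS used by the promoter windows, was also bound in each library, at 8.5 and 5.49 in OAL, 15 and 9.29 in OCR and 9.43 and 7.74 in OCRRF. Another region, 44.6 kb before the TSS in an intron of Gm13778, had peaks in OCR alone, at 5.17 and 7.59. The last, 35.6 kb after the TSS in an intron of Mybpc3, had peaks in OCR replicate 2 (7.7) and OCRRF replicate 2 (6.21).

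Of the 13 regions, 3 had a peak in both OCR libraries and in neither OAL library, beside 8.2% of all 6820 regions. They were the Spi1 region at -44.6 kb, a region 31.8 kb after the Cebpa TSS (5.17 and 7.35 in OCR) and one 16.5 kb before the Csf2ra TSS (8.71 and 7.95 in OCR, 6.1 in OCRRF replicate 1). The first 2 had no peak in OCRRF. At -log10 q of at least 5 in place of the authors' threshold, the count was 1 of 13, beside 7.39% of all regions, and within 10 kb of the TSS it was 0 of 3. With replicate 2 alone it was 4 of 10, beside 32.9% of all regions, and with replicate 1 alone 6 of 12, beside 45.4%. With 2 libraries a group there is no test of the difference.

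The sequences around the summits of the 2 Spi1 regions with a peak in all 6 libraries and of the 3 regions found in OCR but not OAL are shown, because these had a peak throughout or differed between groups. Each runs 5′ to 3′ on the plus strand of mm10 (GRCm38), with 100 bases on either side of the summit of the strongest peak. Capitals mark the string GAGGAA and the string GGAAGT on either strand, which overlap in the PU.1 site written GAGGAAGT. The letters were chosen after the sequences had been seen. The 3 Spi1 regions shown of 4 are chr2:91052006-91052206, chr2:91070604-91070804 and chr2:91083012-91083212, the Cebpa region is chr7:35150979-35151179, between genes, and the Csf2ra region is chr19:61244810-61245010, between genes.
Spi1 at -44.6 kb: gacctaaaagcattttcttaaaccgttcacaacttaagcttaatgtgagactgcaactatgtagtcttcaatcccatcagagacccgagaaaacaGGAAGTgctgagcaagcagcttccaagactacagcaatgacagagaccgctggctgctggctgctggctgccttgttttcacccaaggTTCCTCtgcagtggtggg
Spi1 at -26 kb: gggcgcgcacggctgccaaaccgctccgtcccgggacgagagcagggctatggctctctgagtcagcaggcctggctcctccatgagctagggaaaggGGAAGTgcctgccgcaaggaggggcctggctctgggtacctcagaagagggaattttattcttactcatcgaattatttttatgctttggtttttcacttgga
Spi1 at -13.6 kb: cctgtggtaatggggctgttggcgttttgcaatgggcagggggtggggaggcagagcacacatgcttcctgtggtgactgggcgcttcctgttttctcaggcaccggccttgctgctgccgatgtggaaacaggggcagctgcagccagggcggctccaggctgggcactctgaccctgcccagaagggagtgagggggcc
Cebpa at 31.8 kb: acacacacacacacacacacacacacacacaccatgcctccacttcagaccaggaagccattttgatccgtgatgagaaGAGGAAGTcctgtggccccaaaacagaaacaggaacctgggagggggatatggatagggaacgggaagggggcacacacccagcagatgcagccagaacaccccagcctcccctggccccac
Csf2ra at -16.5 kb: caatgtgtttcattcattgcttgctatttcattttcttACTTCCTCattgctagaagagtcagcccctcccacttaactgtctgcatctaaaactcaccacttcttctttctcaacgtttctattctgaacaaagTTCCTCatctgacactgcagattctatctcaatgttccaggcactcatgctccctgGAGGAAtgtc

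In the Spi1 regions at -44.6 and -26 kb, GGAAGT was centred 2 bases and 1 base from the summit, while the region at -13.6 kb, bound in all 6 libraries, held neither string. The full GAGGAAGT was found in 2 of the 13 member regions, the Cebpa one at 31.8 kb and the Csf2ra one at -16.5 kb, both from the set with peaks in OCR and not OAL, and in 33.6% of 6785 PU.1 regions of the same length. GAGGAA was in 5 of 13 (60.5% of all regions) and GGAAGT in 8 of 13 (72.8%). The C/EBP string TTNNGCAA was in 2 of the 13, among them the Spi1 region at -13.6 kb (10.1% of all regions), and the Runx string TGTGGT in 3 (19.4%). A match describes letters only.

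**Figure D4:**
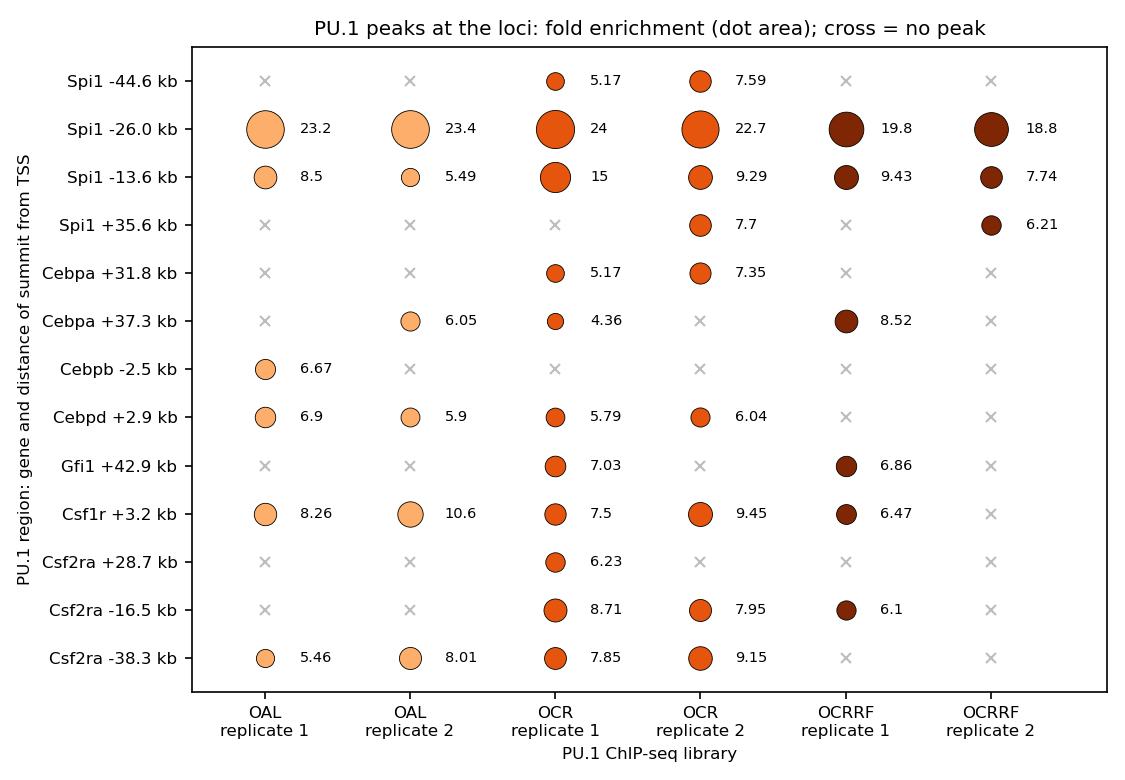
Fold enrichment of PU.1 peaks (dot area, value beside each dot) in the 13 PU.1 regions at the loci (y axis, gene and distance of the summit from the TSS in kb) in the 6 PU.1 ChIP-seq libraries (x axis); a cross marks no peak in that library. The Spi1 region at -26 kb stands at 18.8 to 24 in all 6 libraries, and 3 regions have peaks in both OCR libraries and in neither OAL library.

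The other 7 regions ranged from peaks in 5 libraries to a peak in 1 library alone. The Csf1r region lay in an intron 3.2 kb after the TSS and had peaks in 5 libraries, at 8.26 and 10.6 in OAL, 7.5 and 9.45 in OCR and 6.47 in OCRRF replicate 1. A region in the Cebpd exon, 2.9 kb after the TSS, was bound in all 4 OAL and OCR libraries (5.79 to 6.9) and in neither OCRRF library, as was one 38.3 kb before the Csf2ra TSS (5.46 to 9.15). Cebpb, the member with the clearest fall in mRNA, had 1 region, 2.5 kb before its TSS in an intron of Tmem189, with a peak in OAL replicate 1 alone (6.67). Gfi1 had 1, 42.9 kb after the TSS, in OCR replicate 1 (7.03) and OCRRF replicate 1 (6.86). Cebpa had a second region at 37.3 kb, in 1 library of each group (4.36 to 8.52), and Csf2ra had one more at 28.7 kb in OCR replicate 1 (6.23). Cebpb and Gfi1, whose mRNA was called in OCR against OAL, had no region in both libraries of any group. The same held for Irf8 and Csf3r, whose mRNA was not called.

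Open chromatin at the loci was compared between OCRRF and OCR. Of 94 ATAC-seq peaks at the 9 loci, 91 could be tested and 0 were called in edgeR at an adjusted p below 0.05, over 1.5-fold and a mean log2 CPM over 1.5, beside 0.221% of 123372 peaks. At an unadjusted p below 0.05 there were 18 of 91, beside 11.7% of all peaks, and DESeq2 called 0. The 91 log2 differences ran from -1.03 to 0.73 with a median of 0.00, beside -0.01 over all peaks. The peak over the Gfi1 TSS was at 30.9 and 24.3 CPM in OCRRF and 20.8, 18.1, 19.8 and 24.4 in OCR (0.41 ± 0.11, edgeR adjusted p = 0.0703), and OCRRF replicate 2 lay inside the OCR range. The peak over the Spi1 TSS had 28.3 and 27.5 CPM in OCRRF and 24.1, 24.9, 24.5 and 31.8 in OCR (0.08 ± 0.10), and the one at Cebpb had 11.1 and 11.7 beside 11.8, 11.3, 12.1 and 13 (-0.08 ± 0.14). There were 3 peaks that passed the adjusted p without passing the fold, and 0.525% of all peaks had an adjusted p below 0.05. The peak over the Cebpd TSS had 94.1 and 97.5 CPM in OCRRF and 69.3 to 82.1 in OCR (0.37 ± 0.06, edgeR adjusted p = 0.00156). A peak at -38.4 kb from the Csf2ra TSS had 505.1 and 470.3 CPM beside 374.6 to 419.6 (0.30 ± 0.04, edgeR adjusted p = 4.42e-05) and overlapped the PU.1 region at -38.3 kb. A peak at -38.2 kb from the Cebpa TSS had 28.3 and 28.1 CPM beside 17.5 to 23.4 (0.47 ± 0.10, edgeR adjusted p = 0.0217). In each of the 3, both OCRRF libraries were above all 4 OCR libraries, as in 13 of the 91 peaks and 10.6% of all peaks. Of the 94 peaks, 11 overlapped a PU.1 region.

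H3K4me3, a mark of active promoters, and H3K27me3, the Polycomb mark, were given for OCR as mean signal per base in a window that starts at each TSS, of 750 bp for H3K4me3 and 2000 bp for H3K27me3. Cebpa and Gfi1 carried both marks. Cebpa had H3K4me3 signals of 13.7 and 15 and H3K27me3 signals of 4.37 and 3.59 in the 2 libraries of each mark, the 55.0th and 93.0th percentiles of 31552 promoters. Gfi1 had 22 and 22.2 of H3K4me3 (64.9th percentile) and 3.75 and 2.83 of H3K27me3 (91.3rd). These 2 of 9 members were in the highest decile of H3K27me3 (2.77 or more) and above the median of H3K4me3, as were 3.83% of all promoters. Their mRNA levels were unlike each other, since Gfi1 was at 4.03 ± 2.04 CPM per kb in OCR and Cebpa at 0.194 ± 0.0534.

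Irf8 came next in H3K27me3 with 1.4 and 1.5 (84.7th percentile) at 11.2 and 11 of H3K4me3. Cebpd had the highest H3K4me3 of the members, 34.1 and 33.9 (84.4th percentile). Spi1 had 18 and 17.5 of H3K4me3 and 0.359 and 0.121 of H3K27me3, Cebpb 18.5 and 16.9 of H3K4me3 with H3K27me3 at the 7.8th percentile, Csf3r 20.8 and 17.1 of H3K4me3, and Csf2ra 12.2 and 13.5. Csf1r stood apart, with 0.234 and 0.616 of H3K4me3 at its annotated start (27.3rd percentile).

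**Figure D5:**
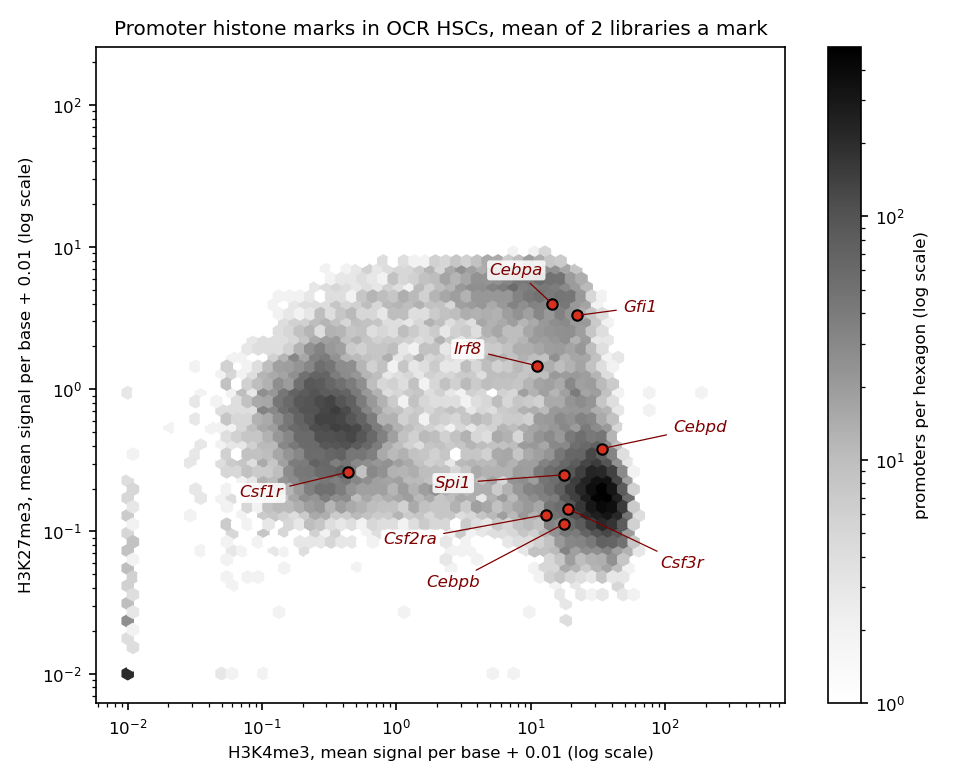
H3K4me3 (x axis) against H3K27me3 (y axis), mean signal per base plus 0.01 on log scales, for 31552 promoters (grey hexagons, shaded by number of promoters on a log scale) and the 9 genes (red points) in OCR HSCs, each value the mean of 2 libraries. Cebpa and Gfi1 lie high in H3K27me3, at mean signals of 3.98 and 3.29, with mean H3K4me3 signals of 14.4 and 22.1. Of the 9 genes, Cebpd lies farthest right at 34 of H3K4me3.

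The promoters of Cebpb and Gfi1 are shown as those of the 2 genes whose mRNA was called in OCR against OAL and which differ in H3K27me3. They are the 250 bases before the RefSeq start on GRCm38.p6, 5′ to 3′ on the strand of the gene, chr2:167688665-167688914 for Cebpb (plus strand) and chr5:107724344-107724593 for Gfi1 (minus strand, the start with the higher H3K4me3).
Cebpb promoter: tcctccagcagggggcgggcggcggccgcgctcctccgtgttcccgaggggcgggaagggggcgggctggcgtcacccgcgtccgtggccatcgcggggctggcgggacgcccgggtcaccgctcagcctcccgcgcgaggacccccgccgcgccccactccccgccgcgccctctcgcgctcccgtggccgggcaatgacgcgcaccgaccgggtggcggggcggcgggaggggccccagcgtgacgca
Gfi1 promoter: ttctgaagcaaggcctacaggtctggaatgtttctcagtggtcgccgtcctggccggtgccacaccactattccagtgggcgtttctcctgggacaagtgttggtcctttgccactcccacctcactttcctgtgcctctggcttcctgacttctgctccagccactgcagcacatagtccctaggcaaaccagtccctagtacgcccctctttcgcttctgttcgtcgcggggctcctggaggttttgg

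Neither window held any of the strings searched on either strand, so nothing is in capitals. Among 32851 promoters of the same length, GAGGAA was found in 23.3%, while GGAAGT was found in 19.7%, and the C/EBP string TTNNGCAA in 9.56% beside 14% for the Runx string TGTGGT. The Cebpb window is 81.6% G and C and the Gfi1 window 57.6%. Of the members, 6 had an entry among the promoters, with 8 windows in all. GAGGAA was found in those of Csf3r and Csf2ra, and TTNNGCAA in the window of the other Gfi1 start.

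Some reads of 5 members could belong to a gene on the other strand, since the strand setting of the counting is not given in the sources used here. The shared exon bases are 312 for Cebpb with Tmem189, 562 for Cebpd with Spidr, 873 for Csf1r with Hmgxb3, 101 for Gfi1 with A430072P03Rik and 51 for Cebpa with Gm45091.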

How the data were processed

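HSCs (Lin-Sca1+cKit+CD34-Flk2-CD150+ in the diet groups, Lin-Sca1+cKit+CD48-CD150+CD45.2+ after transplantation) were measured by RNA-seq, and those of old diet groups also by ATAC-seq and ChIP-seq. RNA reads were aligned with STAR and counted per gene with featureCounts, and the authors deposited raw counts. ATAC-seq counts over 131918 consensus peaks were deposited by the authors as well. ChIP-seq and ATAC-seq reads were trimmed with cutadapt and aligned to mm10 with BWA. PU.1 peaks were called by MACS2 library by library, and the authors deposited a score, a fold enrichment as a ratio, and −log10 p and −log10 q for each peak. For the histone marks, the authors deposited summed and mean signal per promoter window after scaling libraries to a fixed number of reads. Tool names come from the submitters' processing notes. The study's methods give versions for some of these tools.

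RNA and ATAC counts were tested with edgeR 4.0.16 (quasi-likelihood test, TMM, filterByExpr by group, R 4.3.3), with only the groups compared in each fit, Benjamini-Hochberg adjustment over all features tested, and calls at an adjusted p below 0.05 and over 1.2-fold (RNA) or over 1.5-fold with a mean log2 CPM over 1.5 (ATAC). CPM are TMM-normalised. SE was taken from the F statistic, as |log2 fold change|/√F. Alternatives were DESeq2 1.42.0, DESeq2 size factors, no filter, a replicate block and leaving out each library. For peaks they were other distances, q thresholds and overlaps. For RNA, DESeq2 was run on all 55376 genes, so its counts stand beside all genes rather than genes tested. It gave no adjusted p for Cebpa in OCR against OAL, OCRRF against OCR and Kdr knockdown. PU.1 peaks of the 6 libraries were merged where they overlapped. Tables were handled with Python 3.11.15, pandas 2.3.3 and numpy 2.4.6, and figures drawn with matplotlib 3.10.9. Promoter sequences are from RefSeq.

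All 9 members are named in the text. From each of 4 lists of related genes, up to 4 called genes with the largest change are named, and the 5 genes most like Spi1 were taken by Pearson r among genes whose CPM averaged 5 or more. The members and lists were chosen with earlier results of these data known. On simulated counts with 200 changed genes, the edgeR test recovered 59.7% of 2-fold changes in OCR against OAL, 38.8% in OCRRF against OCR, 43.3% in YCR against YAL, 46.3% in Kdr knockdown and 37.3% in double knockdown. Of 1.5-fold changes it recovered 35.8%, 19.4%, 10.4%, 17.9% and 16.4% in the same order, so most changes of that size would be missed. Replicate numbers were not shown to pair libraries. The correlations of deviations between same-numbered libraries ran from -0.293 to 0.185, the highest for replicate 2 of Kdr knockdown and GFP scramble. In groups this small, deviations from the group mean cannot settle whether libraries were paired. Some results for related genes are not reported here.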

Additional observations from a re-analysis of the deposited data

Results flagged for a closer look

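Within groups of 4 libraries, 5 of 63 gene and group combinations had 1 library far from the other 3 by Dixon's test, and chance alone flags about 1 in 20. Cebpa was at 0.0 CPM in YCR replicate 2 beside 1.16 to 1.39 in the other YCR libraries, and at 0.719 CPM in OCR replicate 4 beside 0.411 to 0.46. Csf2ra was at 91.1 CPM in YAL replicate 1 beside 77.3 to 78.8. In Kdr knockdown, Gfi1 was at 24.7 CPM in replicate 3 beside 38.2 to 39.8, and Csf3r was at 204.7 CPM in replicate 4 beside 132 to 137.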

How the results depend on the processing

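Of 99 member values over the 11 RNA comparisons, 30 changed sign under at least 1 alternative. None of these was called, and the largest had a size of 0.59, Gfi1 in OCRRF against OAL, which turned to -0.05 without OCRRF replicate 1 and ran from -0.05 to 1.01 with 1 library left out. The 8 called values kept their sign throughout, and 3 were called under every alternative, Cebpb in OCR against OAL and Spi1 and Irf8 in OAL against YAL. The number of called members in OCR against OAL was 1 in DESeq2 and 1 to 2 with a library left out. In OCRRF against OCR it was 0 to 3 with a library left out, with 0 without OCRRF replicate 1, and in OAL against YAL 2 to 6, with 2 without OAL replicate 1 and 6 without YAL replicate 1. In OCRRF against OAL it was 2 in DESeq2, 1 with DESeq2 size factors and 2 without the filter. It was 1 in YCR against YAL without the filter and 1 in YCRRF against YCR in DESeq2. The count of PU.1 regions in both OCR and neither OAL library was 0 within 10 kb, 1 at -log10 q of at least 5, and 4 to 6 with a replicate left out.

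With the replicate number as a block, the number of called members was 2 in OCRRF against OAL and 1 ATAC-seq peak was called, and no other count of called members changed. These numbers were not shown to pair the libraries. Over all genes, edgeR, DESeq2, edgeR without the filter and edgeR with the block called 1110, 2344, 1359 and 3437 in OCRRF against OCR, 1316, 4499, 2684 and 2080 in OCRRF against OAL, 48, 517, 368 and 7 in YCR against YAL, 2, 357, 275 and 0 in YCRRF against YCR, 3486, 7891, 6671 and 1651 in OAL against YAL, 12, 239, 23 and 3 for the old against young CR response, 3, 261, 82 and 26 in Kdr knockdown, and 1, 333, 19 and 0 in double knockdown. DESeq2 size factors in edgeR gave 3215 in OCRRF against OAL, and the block gave 764 ATAC-seq peaks beside 273. The cause of these differences was not tested.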
